A study of Mus musculus with 6 samples.

Results

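The genes described here make, carry, sense and break down retinoic acid, the active form of vitamin A. They are Cyp26a1, Cyp26b1, Aldh1a1, Aldh1a2, Aldh1a3, Crabp1, Crabp2, Stra6 and Rarb, 9 of the 22180 mouse genes that could be named on the array. They were picked by name with earlier results of the same data known, and each is read from 1 probe set whose annotation gives that single symbol, so their levels are a description and no test was made of them. Mouse Gene 2.0 ST arrays from Affymetrix were used on 6 libraries, 1 per group, all labelled as female DBA/2J mouse material. The groups were undifferentiated induced pluripotent stem (iPS) cells, kept with feeder cells and LIF, and iPS-derived cultures at day 7 of cardiac differentiation with 1% DMSO, with 100 ng/ml NRG-1 (neuregulin 1, a ligand of ERBB receptors), or with both. The cultures had spent 5 days in suspension as embryoid bodies, which hold many cell types, before plating on gelatin with these agents. The other libraries were labelled as cardiomyocytes from neonatal heart and from adult heart. No day 7 culture without either agent is used here, so a difference between a culture and iPS cells covers differentiation and agent together. Values are log2 units from RMA, an array method that equalises the distributions of the arrays, and 1 unit is a 2-fold difference. With 1 library per group there is no replicate error, no difference has a replicate check, and precision is limited by the number of arrays.

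Retinol travels in blood bound to RBP4 and transthyretin (TTR) and enters cells through the membrane receptor STRA6. RDH10 and related enzymes oxidise it to retinaldehyde, DHRS3 runs that step backwards, and the ALDH1A dehydrogenases make retinoic acid. CRABP proteins bind retinoic acid in the cytoplasm, the receptors RARA, RARB and RARG pair with RXR partners to regulate genes, and CYP26 enzymes oxidise retinoic acid for removal. In the embryo ALDH1A2 is the main source of retinoic acid for the heart, where the signal helps to set the inflow and atrial end of the heart tube, and the epicardium is a later source. Cyp26a1 and Rarb are textbook direct targets, so retinoic acid raises both the enzyme that removes it and one of its own receptors.

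The promoters of Cyp26a1 and Rarb are shown first, as those of the textbook targets. Both genes were low in iPS cells and at least 2-fold higher in all 5 other libraries. Cyp26b1 and Aldh1a1 had that pattern too, and their windows held none of the elements described below. All 5 comparisons share the iPS library, and the share of all genes with this pattern was not counted. RefSeq promoter windows (GRCm38.p6, 300 bases each, from 250 before to 50 after a transcript start) were found for 7 of the 9 genes, 11 windows in all. Crabp2 and Aldh1a3 had no window, so their promoters were not searched. They were searched on both strands for direct repeats, the kind of element bound by retinoic acid receptors. Each half-site could be AGGTCA (the consensus form), AGTTCA (the later unit of both elements below), GGTTCA (the leading unit of the Rarb element) or GGGTCA (a further variant of the consensus). A repeat with 5 bases between the half-sites (DR5) was present in 2 of the 11 windows, those of Rarb and Cyp26a1, and in 32 of all 32851 windows (0.0974%). The half-site variants searched include those of these 2 elements, which were known, so this share describes how common such letters are and is no independent comparison. None of the 11 windows held a repeat spaced by 2 bases (DR2) or 1 base (DR1), which were present in 0.268% and 0.222% of all windows. The 30-base stretches below hold the DR5 in capitals, each written 5′ to 3′ on the strand on which the repeat reads forward. The Rarb stretch lies at chr14:16575506-16575535 (minus strand) and the Cyp26a1 stretch at chr19:37697770-37697799 (minus strand, opposite to the gene).
Rarb: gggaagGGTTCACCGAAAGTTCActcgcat
Cyp26a1: acaaattAGTTCACCCAAAGTTCAtcttta
The elements were identical at 15 of 17 positions. Counted from 1 at the 5′ end of the element, with the Rarb base first, they differed by G1A and G9C. The Rarb element covered bases 53 to 37 before the start of its window's transcript, and the Cyp26a1 element bases 32 to 16. The RefSeq record of Cyp26a1 begins 70 bases before that start, so its element lies inside the record. The Rarb window belongs to an internal start of a long gene and is printed here in full up to that start (chr14:16575477-16575726, minus strand) to show the element in its place.
Rarb promoter: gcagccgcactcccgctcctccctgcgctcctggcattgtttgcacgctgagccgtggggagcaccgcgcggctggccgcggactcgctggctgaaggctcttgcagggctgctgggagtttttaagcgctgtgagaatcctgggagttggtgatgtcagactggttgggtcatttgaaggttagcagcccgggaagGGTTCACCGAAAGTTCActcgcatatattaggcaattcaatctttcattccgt
A match in these letters describes the window and does not show that a receptor was bound there in these cells. Among 51 windows of 35 other genes of the pathway, 0 held a DR5, 0 a DR2 and 1, that of Bco1, a DR1.

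The labels were checked against marker genes before the retinoic acid genes were read. The pluripotency list (Nanog, Pou5f1, Sox2, Esrrb, Zfp42 and Tdgf1) had a summed level, given as the log2 of the summed linear values, of 13.57 in iPS cells and of 7.30 to 8.98 in the other libraries. The cardiomyocyte list of 8 genes stood at 8.63 in iPS cells, 10.47 in the neonatal library, 9.10 in the adult library and 9.92 to 10.52 in the cultures. In the adult library 4 of its 8 genes were under the median of the table, among them the myosin heavy chains Myh6 (5.05) and Myh7 (4.82), and the fibroblast list of 7 genes stood at 14.56 there, at 14.08 in the neonatal library, at 12.43 to 12.76 in the cultures and at 10.04 in iPS cells. The Y-linked gene Eif2s3y was 8.15 in the adult and 6.20 in the neonatal library against at most 3.32 in the others, although every sample is labelled female. Xist, the RNA of the inactive X chromosome, was 8.78 in the neonatal library, the highest of the 6, and 3.39 in the adult one. The neonatal library thus carried both signals and the adult library the Y-linked one only. In cardiomyocyte markers the adult library goes against its label. The neonatal sum came mostly from Tnnt2 (9.76), and 2 of the 8 genes, Tnnt2 and Pln, were at least 2-fold above iPS cells, beside 13.0% of all genes. Pln (7.13) was higher there than in any other library, and Tnni3 (7.01) was within the range of the cultures. Myh6 was 6.47, Myh7 5.75, Actn2 5.68, Myl2 5.55 and Ryr2 5.31. The list median (6.11) was under that of every culture (6.37 to 7.03). Neither heart library has a second library of its group, so every value for heart below rests on these libraries. They are called the libraries labelled neonatal and adult. In bulk RNA, fewer cells of a type and less RNA per cell cannot be told apart.

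**Figure D1:**
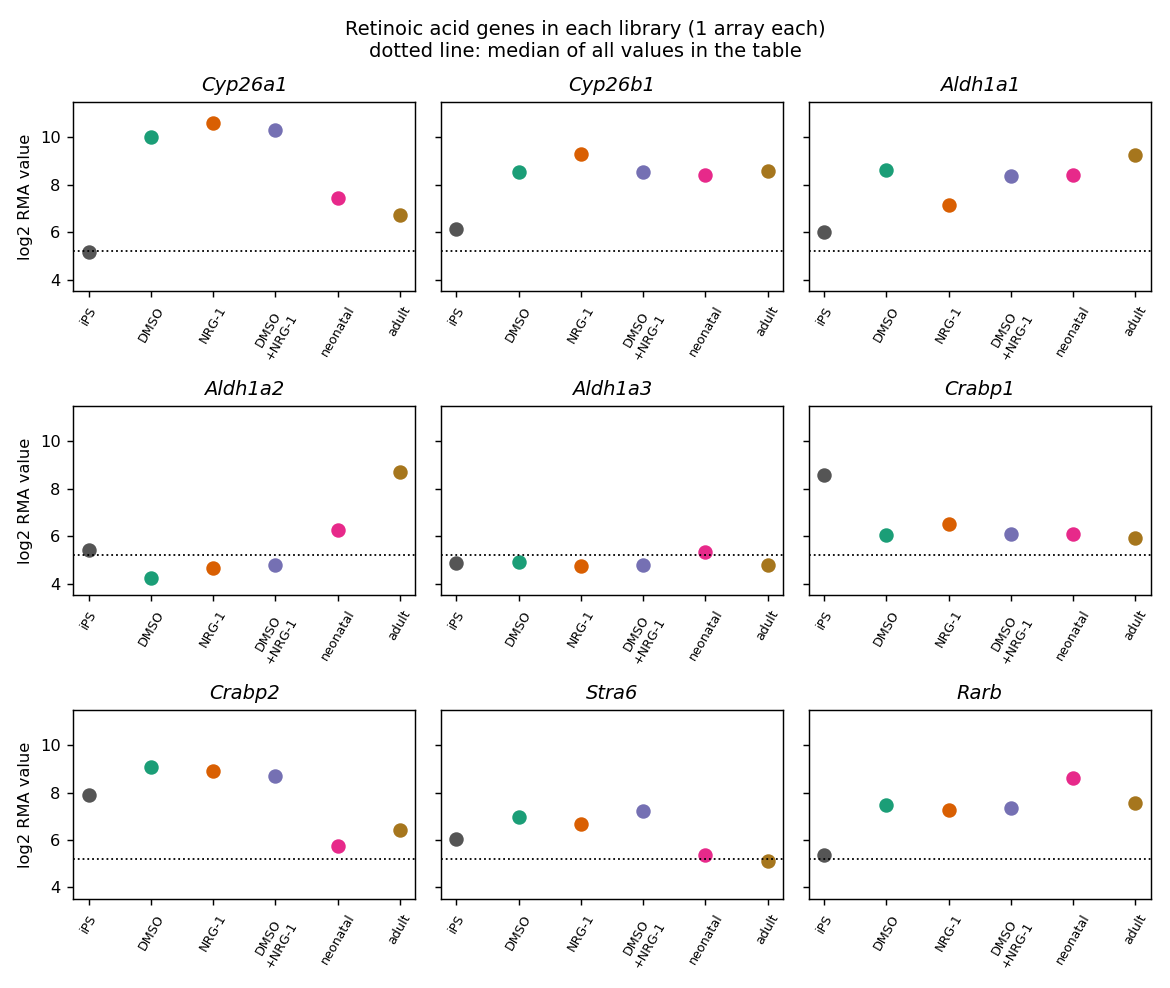
Level of each of the 9 retinoic acid genes (vertical axis, log2 RMA value) in the 6 libraries (horizontal axis, 1 point per array), with the median of all values of the table, 5.20, as a dotted line. Cyp26a1 lies between 10.03 and 10.60 in the 3 cultures and at 5.15 in iPS cells, Crabp1 is highest in iPS cells at 8.60, and Aldh1a2 is highest in the adult library at 8.70.

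The breakdown enzymes were both lowest in undifferentiated iPS cells. Cyp26a1 was 5.15 in iPS cells, 10.03 with DMSO, 10.60 with NRG-1, 10.32 with both agents, 7.43 in the neonatal and 6.74 in the adult library. The 3 cultures were thus the highest, with a gap of 2.60 to the neonatal library, and iPS cells lay just under the median of the table (5.20). Relative to iPS cells the differences were 4.88 with DMSO, 5.45 with NRG-1 and 5.17 with both, which placed Cyp26a1 19th, 6th and 12th from the top among 13741, 13763 and 13696 genes. The neonatal and adult differences from iPS cells were smaller, at 2.28 and 1.60. Cyp26b1, a second enzyme of the same kind, was 6.14 in iPS cells, 8.54 with DMSO, 9.32 with NRG-1, 8.56 with both, 8.43 in the neonatal and 8.60 in the adult library. Apart from the NRG-1 culture, the other 4 non-iPS libraries lay within 8.43 to 8.60. The third family member, Cyp26c1, is the protein-coding neighbour of Cyp26a1 in the RefSeq gene table. Its level was 5.20 in iPS cells and 4.40 to 5.05 elsewhere, so it was not higher in the cultures in which Cyp26a1 was.

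The enzymes that make retinoic acid did not share one pattern. Aldh1a1 was 6.02 in iPS cells, 8.64 with DMSO, 7.15 with NRG-1, 8.37 with both, 8.42 in the neonatal and 9.26 in the adult library. It was lowest in iPS cells, and among the other libraries the NRG-1 culture was the lowest by 1.22. Aldh1a7, a close copy of Aldh1a1 that lies next to it and was looked up after the values were seen, was 4.84 in iPS cells, 7.62, 5.82 and 6.99 with DMSO, NRG-1 and both, 5.42 in the neonatal and 5.06 in the adult library. The order of the cultures was the same for both genes, while the adult library was the highest for Aldh1a1 and, after iPS cells, the lowest for Aldh1a7. Whether RNA of one gene reached the probes of the other was not tested, so the Aldh1a1 value is uncertain to that extent.

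Aldh1a2, the main embryonic enzyme, was also highest in the adult library but was lowest in the cultures. Its level was 5.43 in iPS cells, 4.23 with DMSO, 4.64 with NRG-1, 4.79 with both, 6.27 in the neonatal and 8.70 in the adult library. The adult library stood 2.44 above the neonatal one, and all 3 cultures lay under the median of the table and under iPS cells. Its sister enzyme Aldh1a3 was between 4.76 and 4.89 in 5 libraries and 5.34 in the neonatal library, the only value above the median of the table. Aldh1a2 marks epicardial and fibroblast-like cells of the heart, and the levels of those lists are given beside it. The epicardial and mesothelial list of 7 genes summed to 8.997 in iPS cells, 11.45, 9.77 and 11.09 with DMSO, NRG-1 and both, 10.72 in the neonatal and 10.09 in the adult library. Of that list, Tbx18 was 8.35 and 8.60 and Tcf21 8.42 and 8.36 in the neonatal and adult libraries, whereas Wt1 was 8.45 and 6.87. The culture sums came mostly from Msln and Upk1b, since in the cultures Tbx18 was 4.88 to 5.04, Tcf21 4.76 to 5.15 and Bnc1 4.25 to 4.48, all under the median of the table, and Wt1, at 6.94 to 7.08, was lower than in iPS cells. Between the heart libraries the sums of the 2 lists went in opposite directions. The epicardial and mesothelial sum was lower in the adult library. Of its 7 genes 3 were down by 2-fold or more and 0 up, beside 2.92% and 2.52% of all genes. Tbx18 alone was slightly higher there (8.60 against 8.35). The fibroblast sum was higher in the adult library (14.56 against 14.08). Of its 7 genes 2 were up by 2-fold or more and 0 down, beside 2.52% and 2.92%. Lum alone was slightly lower there (7.36 against 7.66). Both lists are short, so nothing is read from these counts against the shares. The part of cells with either set of markers in the Aldh1a2 level was not tested.

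The binding proteins CRABP1 and CRABP2 are close relatives, and their genes differed in where they were high. Crabp1 was 8.60 in iPS cells, 6.07 with DMSO, 6.53 with NRG-1, 6.09 with both, 6.07 in the neonatal and 5.91 in the adult library. Undifferentiated cells stood 2.07 above the next library, and the other 5 lay within 5.91 to 6.53. Crabp2 was 7.92 in iPS cells, 9.08 with DMSO, 8.93 with NRG-1, 8.70 with both, 5.74 in the neonatal and 6.43 in the adult library. All 4 libraries of iPS origin lay above both heart libraries, with a gap of 1.49, and the cultures lay above iPS cells by 0.78 to 1.16. Epithelial markers (5 measured genes, Epcam, Cdh1, Krt8, Krt18 and Krt19) summed to 13.43 to 13.56 in the cultures, 10.36 in iPS cells and 10.36 and 8.44 in the neonatal and adult libraries. The equal sums of iPS cells and the neonatal library hide opposite directions. Epcam was 8.91 in iPS cells and 4.50 in the neonatal library, and Cdh1 8.44 and 5.40. Krt18 was instead 7.34 and 9.53, Krt19 6.09 and 7.61, and Krt8 7.99 and 8.30. The part of cells with epithelial markers in the Crabp2 level was not tested.

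Stra6, the retinol uptake receptor, had the same order of groups over a narrower range. Its level was 6.04 in iPS cells, 6.99 with DMSO, 6.70 with NRG-1, 7.22 with both, 5.39 in the neonatal and 5.10 in the adult library. No 2 neighbours in this order were more than 0.66 apart. Rarb, the receptor that is itself a target, was 5.38 in iPS cells, 7.48 with DMSO, 7.29 with NRG-1, 7.35 with both, 8.63 in the neonatal and 7.58 in the adult library. The cultures and the adult library lay within 7.29 to 7.58, with iPS cells 1.91 below and the neonatal library 1.05 above.

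**Figure D2:**
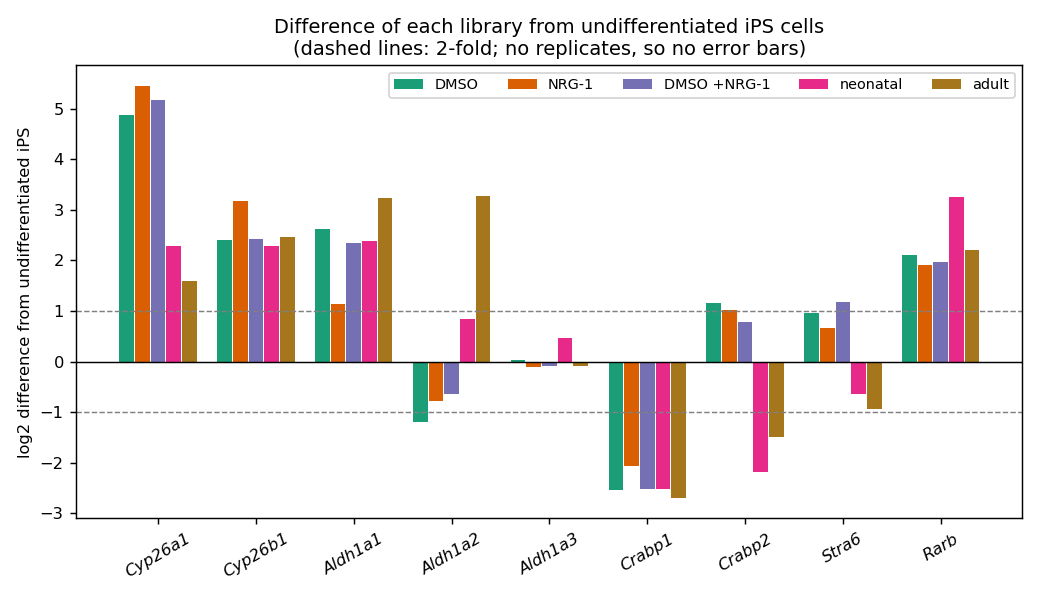
Difference of each library from undifferentiated iPS cells (vertical axis, log2 units, bars from 0) for the 9 genes, with a bar for each of the 3 cultures and the 2 heart libraries and dashed lines at 2-fold. Cyp26a1, Cyp26b1, Aldh1a1 and Rarb are above the upper line in all 5 libraries and Crabp1 is below the lower line in all 5, while Aldh1a2, Crabp2 and Stra6 point one way in the cultures and the other way in the heart libraries.

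The cultures were set against undifferentiated iPS cells to describe these genes over differentiation. A gene was counted if the higher of its values in the comparison was at or above the median of the table and it was at least 2-fold apart. Of the 9 genes, 8 passed that filter in each of the 3 cultures, Aldh1a3 being the one left out. With DMSO, 5 were higher (Cyp26a1, Cyp26b1, Aldh1a1, Crabp2 and Rarb), where 13.1% of all genes were, and 2 were lower (Aldh1a2 and Crabp1), where 13.3% were. With NRG-1 the same 5 were higher, beside 11.3% of all genes, and 1, Crabp1, was lower, beside 14.5%. With both agents 5 were higher, Stra6 taking the place of Crabp2, beside 13.0% of all genes, and Crabp1 alone was lower, beside 13.1%. The change of names comes from values next to the limit of 1. Crabp2 differed by 1.01 with NRG-1, just inside, and by 0.78 with both, and Stra6 differed by 0.95 with DMSO, just outside, and by 1.19 with both. Because the genes were chosen with such values known, these counts describe them and nothing is read from the excess over the percentages. The split of all genes depends on the scaling. With every library set to an equal median of 9 housekeeping genes, 21.2%, 26.3% and 21.0% of all genes were higher and 8.05%, 6.51% and 7.91% lower with DMSO, NRG-1 and both, while 6, 6 and 6 of the 9 retinoic acid genes were higher and 1, 1 and 1 lower. The 3 comparisons share the iPS library. As a rough measure of technical error, an SD per probe set was derived from genes with 2 probe sets, by their disagreement about a difference. It was 0.553, 0.601 and 0.562 in these comparisons. Besides noise, real unlikeness of the transcripts read by the 2 probe sets can enter this SD.

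Markers of visceral endoderm, the yolk sac tissue that embryoid bodies also form and that expresses retinol carriers, were high in the same cultures as Cyp26a1. Of these 9 markers 5, 7 and 7 were at least 2-fold higher than in iPS cells with DMSO, NRG-1 and both. Of all genes 13.1%, 11.3% and 13.0% were. In each culture 0 of the markers were lower, beside 13.3%, 14.5% and 13.1% of all genes. Amn, at 6.29 to 6.76 in the cultures, was near its iPS level of 6.23. The summed level of the 9 was 11.91 with DMSO, 12.52 with NRG-1 and 12.04 with both, against 9.30 in iPS cells, 8.78 in the neonatal and 9.05 in the adult library. Afp, a defining product of that tissue, was 10.72, 11.48 and 10.81 in the cultures and 4.76 in iPS cells. Both Afp and Cyp26a1 were highest with NRG-1, as were Apoa1, Apoa4, Amn, Cubn and Foxa2. Among the cultures Sox17 (8.36) and Hnf4a (6.79) were instead highest with both agents, and Apob (6.80) with DMSO. The part of visceral endoderm cells in the Cyp26a1 level was not tested.

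The libraries labelled neonatal and adult were also set against iPS cells. In the neonatal library all 9 genes passed the filter, 4 were at least 2-fold higher (Cyp26a1, Cyp26b1, Aldh1a1 and Rarb), beside 13.0% of all genes, and 2, Crabp1 and Crabp2, were lower, beside 11.2%. In the adult library 8 passed, 5 were higher, Aldh1a2 in addition to those 4, beside 13.1% of all genes, and the same 2 were lower, beside 14.1%. Crabp2 differed from iPS cells by -2.18 in the neonatal and -1.49 in the adult library, and Crabp1 by -2.53 and -2.69. The largest neonatal difference was that of Rarb (3.25), and in the adult library those of Aldh1a2 (3.27) and Aldh1a1 (3.24) were the largest. Under equal housekeeping medians 21.5% of all genes were higher and 6.11% lower in the neonatal library, and 17.1% higher and 11.0% lower in the adult one, with 5 of the 9 retinoic acid genes higher and 2 lower in each. The SD per probe set was 0.589 and 0.598.

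Between the adult and the neonatal library, 1 of the 9 genes was at least 2-fold higher, Aldh1a2 by 2.44, beside 2.52% of all genes, and 1 was lower, Rarb by -1.05, beside 2.92%. Aldh1a2 was 27th from the top among 13164 genes. Rarb was just past the limit, and was within it, at -0.97, when the arrays were normalised with cyclic loess. The other 7 genes were less than 2-fold apart, with Aldh1a1 at 0.85, Cyp26a1 at -0.68 and Crabp2 at 0.68 and an SD per probe set of 0.345. Equal housekeeping medians gave 1.56% of all genes higher and 5.30% lower, with the same counts of 1 and 1 for the 9 retinoic acid genes.

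**Figure D3:**
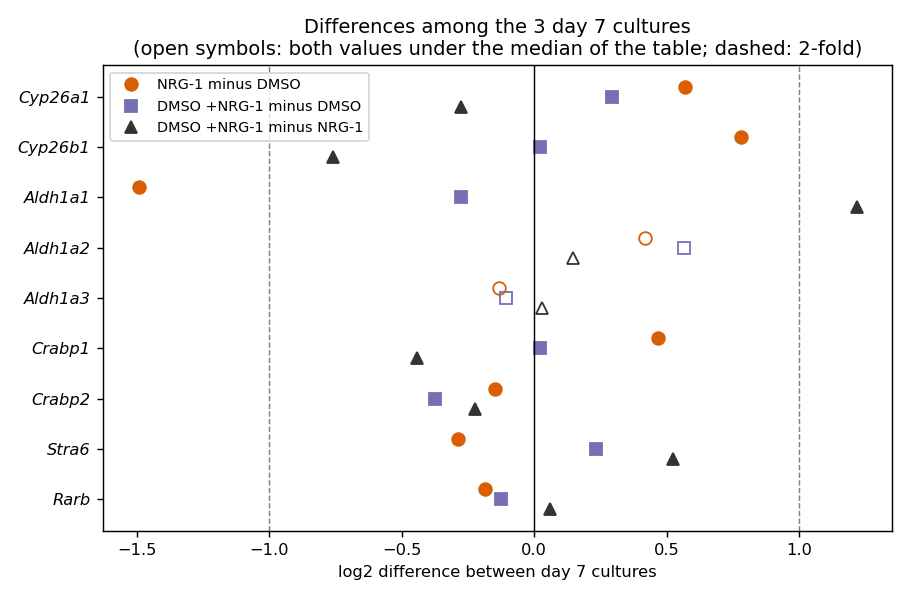
Differences among the 3 day 7 cultures (horizontal axis, log2 units) for the 9 genes (vertical axis), with a symbol for each pair of cultures, open where both values were under the median of the table, and dashed lines at 2-fold. Aldh1a1 is the one gene past a dashed line, at -1.49 for NRG-1 minus DMSO and 1.22 for both agents minus NRG-1.

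The agents were compared with each other at the same day. Between the NRG-1 and the DMSO culture, 7 of the 9 genes passed the filter, Aldh1a2 and Aldh1a3 being dim in both. Of the 7, 0 were at least 2-fold higher with NRG-1, beside 0.360% of all genes, and 1 was lower, beside 1.78%. This was Aldh1a1, at -1.49, 54th from the bottom among 13343 genes. Cyp26b1 differed by 0.78, Cyp26a1 by 0.57 and Crabp1 by 0.47 in the other direction, and Rarb by -0.19, Crabp2 by -0.15 and Stra6 by -0.29. The SD per probe set was 0.305, so the last 3 differences were smaller than that SD and the Cyp26b1, Cyp26a1 and Crabp1 differences larger.

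Adding NRG-1 to DMSO gave values close to those with DMSO alone. Of the 7 genes that passed, 0 were at least 2-fold higher, beside 0.0455% of all genes, and 0 lower, beside 0.0530%. The largest of the 7 differences was -0.37, for Crabp2, followed by 0.29 for Cyp26a1 and -0.28 for Aldh1a1, with an SD per probe set of 0.197. No test was run, as each culture is 1 library, so this does not show that NRG-1 has no effect beside DMSO. The culture with both agents differed from that with NRG-1 alone mainly in the same enzymes. Aldh1a1 was 1.22 higher, the 1 gene of 7 past 2-fold, beside 1.08% of all genes, while 0 were lower, beside 0.293%, with Cyp26b1 at -0.76 and Stra6 at 0.52. These 3 comparisons share libraries and are not independent of each other. Equal housekeeping medians turned the split of all genes to 1.11% higher and 0.921% lower for NRG-1 minus DMSO and to 0.532% higher and 0.795% lower for both agents minus NRG-1, with the counts of the 9 retinoic acid genes as above. Beside Aldh1a1, the epicardial and mesothelial list had its lowest culture level with NRG-1 (9.77 against 11.45 and 11.09), led by Msln, at 8.34 with NRG-1 against 10.35 and 9.93, and Upk1b, at 8.02 against 10.12 and 9.75. Upk3b was also lower with NRG-1 (6.30 against 7.40 and 7.02), while Wt1 was 7.02 against 7.08 and 6.94 and Tbx18, Tcf21 and Bnc1 were dim in all 3 cultures. That list was not alone in this. With NRG-1 the cardiomyocyte sum was 9.92 against 10.43 and 10.52, and the fibroblast sum 12.43 against 12.76 and 12.705. The visceral endoderm sum was instead highest with NRG-1 (12.52 against 11.91 and 12.04). The part of cells with any of these markers in the Aldh1a1 level was not tested.

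Genes upstream in the pathway were read from lists chosen by function. The retinol transport and storage list had 7 of 8 genes measured, of which 5 passed the filter in the cultures. At least 2-fold higher than in iPS cells were 3 in each culture, with 0 lower, beside 13.1%, 11.3% and 13.0% of all genes higher and 13.3%, 14.5% and 13.1% lower with DMSO, NRG-1 and both. Rbp4, the blood carrier of retinol, was 5.61 in iPS cells, 10.01 with DMSO, 10.69 with NRG-1, 9.38 with both, 5.92 in the neonatal and 6.38 in the adult library. Ttr, its partner in blood, was 6.14 in iPS cells, 9.83 to 10.61 in the cultures, 6.03 in the neonatal and 6.49 in the adult library. Both carriers were thus high in the cultures and near the iPS level in heart, and both are also products of visceral endoderm. Lrat, which stores retinol as esters, was 4.46 in iPS cells, 6.65, 5.61 and 6.04 in the cultures, 4.06 in the neonatal and 5.00 in the adult library. Between cultures, Lrat differed by -1.04 for NRG-1 minus DMSO, and Rbp4 by -1.31 for both agents minus NRG-1. In neither heart library was a gene of this list at least 2-fold from iPS cells. Of all genes 13.0% and 13.1% were higher and 11.2% and 14.1% lower in the neonatal and adult libraries. The list medians of the cultures against iPS cells were 0.34, 0.18 and 0.15, beside medians of -0.0023, -0.0020 and -0.022 over all genes.

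Of the 13 genes between retinol and retinaldehyde, all measured, 10 passed the filter in the cultures and 9 in heart. In the cultures 5, 4 and 5 were at least 2-fold higher than in iPS cells with DMSO, NRG-1 and both, beside the same 13.1%, 11.3% and 13.0% of all genes, and 1, 2 and 1 lower, beside 13.3%, 14.5% and 13.1%. Rdh10, the main embryonic retinol dehydrogenase, was 6.03 in iPS cells, 10.87 with DMSO, 10.54 with NRG-1, 10.75 with both, 7.59 in the neonatal and 7.50 in the adult library. Dhrs9 was 3.70 in iPS cells, 6.99, 6.82 and 6.93 in the cultures, and 6.01 and 6.48 in the heart libraries. Adh1, an alcohol dehydrogenase that also oxidises retinol, was 3.70 in iPS cells, 5.92 to 6.22 in the cultures, and 3.35 and 3.71 in heart. Dhrs3, which turns retinaldehyde back into retinol, was 7.42 in iPS cells, 8.81, 8.12 and 8.43 in the cultures, and 10.51 and 10.73 in the neonatal and adult libraries. Rdh10 was therefore highest in the cultures and Dhrs3 highest in heart. In each heart library 3 genes of the list were higher (Dhrs3, Dhrs9 and Rdh10), beside 13.0% and 13.1% of all genes, and 1 was lower, beside 11.2% and 14.1%, which was Adh5, at 10.36 in iPS cells and 8.97 and 8.77 in heart. The list medians against iPS cells were 0.72, 0.70 and 0.57 in the cultures and 0.54 and 0.58 in heart, beside -0.043 to -0.0020 over all genes.

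**Figure D4:**
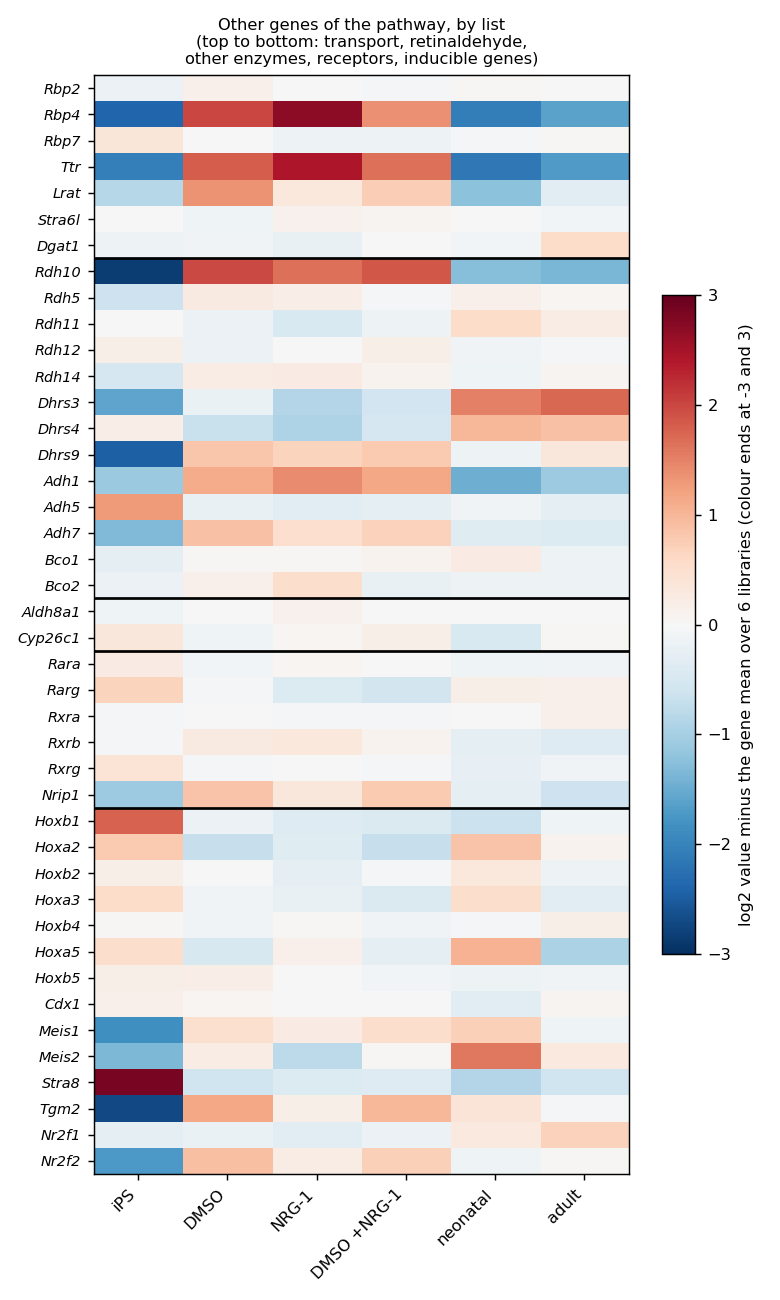
Other genes of the pathway (rows, in 5 lists separated by lines) in the 6 libraries (columns), coloured by the log2 value minus the mean of the gene over the libraries, with colours ending at -3 and 3. Rbp4, Ttr and Rdh10 are red in the 3 cultures, Dhrs3 is red in the neonatal and adult libraries, and Stra8 and Hoxb1 are red in iPS cells alone.

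Among the receptor genes other than Rarb, Rxra and Rara had the narrowest ranges. Of the 6 measured genes of that list, 5 passed the filter in each comparison with iPS cells. Rxra ranged from 6.76 to 6.98 and Rara from 7.08 to 7.45 over the 6 libraries, and Rarg was 7.28 in iPS cells and 6.58, 6.21 and 6.06 in the cultures. Rarg was at least 2-fold lower than in iPS cells with NRG-1 (-1.07) and with both agents (-1.22), beside 14.5% and 13.1% of all genes. Nrip1, a corepressor that retinoic acid induces, was 8.02 in iPS cells, 9.98, 9.46 and 9.91 in the cultures, and 8.86 and 8.51 in heart, and was the 1 gene of the list at least 2-fold higher in each culture. Of all genes 13.1%, 11.3% and 13.0% were higher with DMSO, NRG-1 and both. The heart libraries had 0 of the 6 past 2-fold in either direction. Of all genes 13.0% and 13.1% were higher and 11.2% and 14.1% lower in the neonatal and adult libraries. With so few genes, nothing is read from these counts against the shares. Rarb itself spanned 3.25, against 0.22 for Rxra, 0.37 for Rara and 1.22 for Rarg.

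Genes known to be induced by retinoic acid in embryonic cells had no shared direction. Of 14 measured, 11 passed the filter in each culture, 12 in the neonatal and 13 in the adult library. In the DMSO, NRG-1 and combined cultures 4, 3 and 4 were at least 2-fold higher than in iPS cells, beside 13.1%, 11.3% and 13.0% of all genes, and 4, 3 and 3 were lower, beside 13.3%, 14.5% and 13.1%. In the neonatal and adult libraries 4 and 4 were higher, beside 13.0% and 13.1%, and 2 and 3 lower, beside 11.2% and 14.1%. With so few genes, nothing is read from these counts against the shares. Tgm2, a transglutaminase, was 7.08 in iPS cells, 10.96, 9.98 and 10.78 in the cultures, and 10.19 and 9.76 in heart. Nr2f2, a nuclear receptor of atrial and venous cells, was 5.08 in iPS cells, 7.71, 7.03 and 7.53 in the cultures, and 6.68 and 6.85 in heart. Meis2, a partner of HOX proteins, was 7.58 in iPS cells, 9.16, 8.16 and 8.98 in the cultures, and 10.52 and 9.22 in heart. These 3 genes were lowest in iPS cells, as Cyp26a1 and Rarb were. Stra8, a germ cell gene named for its response to retinoic acid, was instead 7.26 in iPS cells and 3.53 to 4.02 in the other libraries, and Hoxb1 was 7.77 in iPS cells and 5.37 to 5.87 elsewhere. Between the heart libraries, Hoxa5 was lower in the adult one by -1.99 and Meis2 by -1.30. The list medians against iPS cells lay between -0.17 and 0.11 in the 5 libraries.

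**Figure D5:**
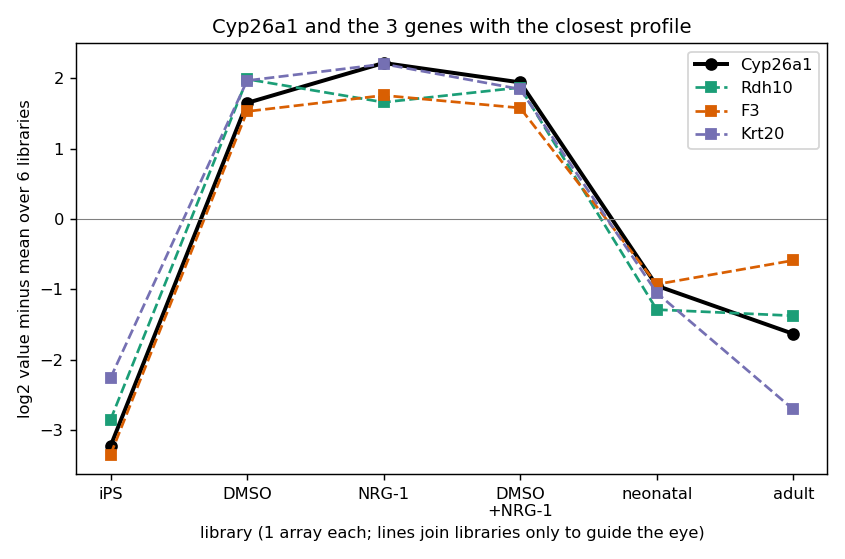
Cyp26a1 and the 3 genes whose profile over the 6 libraries was closest to it (vertical axis, log2 value minus the mean of the gene over the libraries; horizontal axis, libraries, 1 array each). Rdh10, F3 and Krt20 share the high level in the 3 cultures, and differ by a mean of 0.32, 0.36 and 0.43 from Cyp26a1 over the libraries.

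For each gene that spanned at least 2 log2 units, the 3 genes with the closest profile among 13272 others were found by the mean absolute difference of values centred over the 6 libraries. The closest to Cyp26a1 was Rdh10, at 0.32, followed by F3, the tissue factor of blood clotting, at 0.36 and the keratin Krt20 at 0.43. Aldh1a1 was closest to Pon2 (0.18), Il13ra1 (0.21) and Rab7b (0.21), which shared its low value with NRG-1. Pon2, for example, was 7.66 with DMSO, 6.62 with NRG-1 and 7.43 with both. Closest to Aldh1a2 were Csgalnact1 (0.24), Tmem45a (0.27) and Serpinf1 (0.28), all highest in the adult library. For Crabp1 they were Acsbg3 (0.093), Platr7 (0.095) and Pramel6 (0.12), high in iPS cells, and for Crabp2 they were Clca4b (0.17), Lsr (0.17) and Grb7 (0.19). Stra6 was closest to Peli1, Cdh6 and Fgfr3 (each 0.12), Cyp26b1 to Dap (0.12), Ahnak (0.16) and Creb3l2 (0.19), and Rarb to Tdrd7 (0.14), Uba7 (0.15) and Cgnl1 (0.15). With 6 libraries, 3 of them similar cultures, a close profile is a weak likeness.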

How the data were processed

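RMA was run by the authors, according to the submitters' processing notes, and gave the deposited log2 values of 41345 probe sets in 6 libraries. The sources used here do not name the software, its version or a genome build. That the scale is log2 follows from the range of the values. After sorting, the 6 columns were within 0.285 of each other, so total RNA cannot be compared, and signal over background was not judged.

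Names came from the platform annotation, 23521 probe sets with 1 symbol, 1814 with several (not used) and 16010 unnamed here. A gene's value was the mean of its probe sets. The median of all values, 5.20, was the filter. Differences were taken for 9 comparisons, with no test. Members, lists and comparisons were chosen with earlier results of these data known. Named are the 9 genes, up to 3 list genes per comparison with the largest difference, and the closest profiles. Other genes named are list or marker genes, chosen after their values were seen. Some list genes are not reported here. Promoters are from RefSeq. Counting and profile steps were tested on simulated data. Alternatives were no filter, a filter at the 75th percentile (6.93), the brightest probe set, cyclic loess (limma 3.58.1), equal medians of 9 housekeeping genes and a 4-fold limit. Python 3.11.15 and pandas 2.3.3 were used.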

Additional observations from a re-analysis of the deposited data

Results flagged for a closer look

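For 3 genes, the 3 cultures all differed from undifferentiated iPS cells in one direction and both heart libraries in the other. Each group holds single libraries that share the iPS library, so the difference between cultures and heart was not tested. The rule asked for direction and for a highest value at or above the median of the table. It set no minimum difference, and the share of all genes that meet it was not counted. Crabp2 differed from iPS cells by 1.16 with DMSO, 1.01 with NRG-1 and 0.78 with both agents, but by -2.18 in the neonatal and -1.49 in the adult library. Stra6 differed by 0.95, 0.66 and 1.19 in those cultures, and by -0.65 in the neonatal and -0.93 in the adult library. It was at least 2-fold from iPS cells with both agents only. Aldh1a2 ran the other way, at -1.20, -0.79 and -0.64 in the cultures and at 0.84 in the neonatal and 3.27 in the adult library. In the cultures its level was under the median of the table. The retinol receptor and the second binding protein were therefore higher in the cultures, and the main embryonic synthesis enzyme was higher in the heart libraries.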

How the results depend on the processing

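All 81 differences of single genes kept their sign where they were at least 2-fold, and moved by less than 1.5-fold, with cyclic loess. With the brightest probe set they could not change, because each of the genes has 1 probe set. Equal housekeeping medians add the same amount, at most 0.55 in size, to every gene of a comparison. That setting could therefore not move any of the 81 by 1.5-fold either. The counts of genes higher or lower stayed within 1.5 times of those reported in all 18 cases without a filter. They did so in 17 of 18 with a filter at the 75th percentile, cyclic loess or equal housekeeping medians. With the brightest probe set the 18 counts could not change. With the 75th percentile filter and with equal housekeeping medians, 1 gene and not 2 was lower with DMSO than in iPS cells, Aldh1a2 being at -0.86 under equal medians. Of all genes 17.8% and 8.05% were lower in those settings. With cyclic loess, 0 and not 1 was lower in adult against neonatal, beside 2.65% of all genes. Equal housekeeping medians moved the median of all genes by up to 0.55 (NRG-1 minus iPS). Taken relative to that median, an alternative added after seeing the data, all 18 counts stayed within 1.5 times, though Crabp2 with NRG-1 was then at 0.98. A 4-fold limit changed 7 of the 18 counts by more than 1.5 times. Against iPS cells, 1 gene was lower with DMSO, 2 were higher with NRG-1, 3 were higher with both agents and 1 was lower in the adult library. It left 0 lower in adult against neonatal, 0 lower with NRG-1 against DMSO and 0 higher with both against NRG-1. Crabp2 with DMSO (1.16) and Cyp26a1 in the adult library (1.60) also fell short of 4-fold. The counts of genes higher than in iPS cells there fell too, but by less than 1.5 times. The shares of all genes at 4-fold are not given here, so nothing is read from these counts. No paired analysis was possible because each group has 1 library.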
